A study of Mus musculus with 55 samples.

Results

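SR proteins are splicing factors with RNA recognition motifs and a tail rich in arginine and serine. The genes described here are the 9 whose symbol is Srsf1, Srsf2, Srsf3, Srsf4, Srsf5, Srsf6, Srsf7, Srsf10 or Srsf11, taken by symbol alone from 37620 genes, with all 68 of their isoforms out of 97251. Their RNA was measured in the livers of 55 untreated male mice of 29 Collaborative Cross lines, which are recombinant inbred lines descended from 8 founder strains. All mice were fed rodent chow, were between 8 and 11.9 weeks old and weighed between 12.8 and 38 g. There was 1 mouse in 8 of the lines, 2 in 16 and 3 in 5. The question asked of the genes was whether their expression and the mix of their isoforms differed among lines.

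As background, SR proteins bind exons and recruit the spliceosome, and the shuttling members also accompany mRNA out of the nucleus. Genes of this family are known for transcripts that carry an extra exon or a retained intron with an early stop codon. Such transcripts make no full protein and many of them are removed by nonsense-mediated decay (NMD). The choice between the coding and the other form is a known way in which SR genes limit their own protein.

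Depth was between 20.5 and 34.0 M fragments per mouse. The liver label was checked with marker genes. Hepatocyte markers were high in every mouse (Alb between 8656 and 50167 FPKM), the pancreatic marker Prss1 was at 0 in all 55 although Cela1, another, reached 101.7 FPKM, and markers of Kupffer, endothelial, stellate and blood cells were present at levels that differed between mice, so that fewer cells of a type and less RNA per cell cannot be told apart. Over all genes, the most similar mouse came from the same line for 41 of the 47 mice that were not alone in theirs. All 5 mice labelled IL-1052 or IL-2750 were instead closest to a mouse labelled as the other of these lines, and the results below were also computed without both lines. In IL-2146, 1 mouse was closest to the mouse of IL-1141 and not to its line mate. Both mice of IL-2146 had the shortest isoforms in use. The mean length of the isoforms in use, relative to the mean of all mice, was 97.98% and 98.88% in them over 4967 genes, against 98.99% to 100.7% in the other mice, and 88.4% and 87.4% over the 9 SR genes, against 91.1% to 106.3%. Over all genes the step to the next mice was small (98.99% in IL-2126 and 99.05% in 1 mouse of IL-1513). Over the SR genes, 1 mouse of IL-1513 and 1 of IL-2750 were also low, both at 91.1%. IL-1513 was not left out as a line. Whether the shorter isoforms of IL-2146 come from the library or from the line cannot be told apart with 1 pair of mice, so results that rest on IL-2146 are given with and without it.

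The annotation of the same genome build (NCBI37) held 65 of the 68 isoforms. It classed 31 as protein coding, 8 as NMD, 14 as retained intron and 12 as processed transcript, and the 3 without a match belong to Srsf2. In that build the members with annotated NMD or retained intron isoforms are Srsf1 (ENSMUSG00000018379) at chr11:87860875-87867257 on the plus strand, Srsf2 (ENSMUSG00000034120) at chr11:116711215-116714408 on the minus strand, Srsf3 (ENSMUSG00000071172) at chr17:29169618-29180311 on the plus strand, Srsf5 (ENSMUSG00000021134) at chr12:82046491-82051494 on the plus strand and Srsf11 (ENSMUSG00000055436) at chr3:157673437-157699603 on the minus strand. The others are Srsf4 (ENSMUSG00000028911) at chr4:131429532-131457640 on the plus strand, Srsf6 (ENSMUSG00000016921) at chr2:162757264-162762857 on the plus strand, Srsf7 (ENSMUSG00000024097) at chr17:80599429-80606629 on the minus strand and Srsf10 (ENSMUSG00000028676) at chr4:135411662-135425823 on the plus strand. The stretches below are pieces in which the frame of the leading coding isoform meets its first stop in a member's other isoforms. Not all such stretches are printed, and that of Srsf11-004 (179 bases) is left out. The printed ones are shown because the shares reported here count the transcripts that carry them. Each runs from the first base of the absent piece that holds the stop through the stop codon, 5′ to 3′, with the stop in capitals.
Srsf3-002, chr17:29176399-29176432, plus strand: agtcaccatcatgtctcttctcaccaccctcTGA
Srsf6-002, chr2:162758551-162758702, plus strand: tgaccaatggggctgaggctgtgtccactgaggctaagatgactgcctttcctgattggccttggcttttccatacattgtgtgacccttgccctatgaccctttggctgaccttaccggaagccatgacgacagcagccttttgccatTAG
Srsf5-006, chr12:82049116-82049166, plus strand: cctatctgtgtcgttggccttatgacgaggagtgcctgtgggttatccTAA
Srsf5-005, chr12:82048853-82048861, plus strand: gtttgtTGA
Srsf5-008, chr12:82047708-82047719, plus strand: gtaagtactTGA
Srsf11-003, chr3:157687679-157687725, minus strand: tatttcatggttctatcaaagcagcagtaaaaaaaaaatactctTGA
The Srsf3 piece opens a cassette exon of 456 bases (chr17:29176399-29176854), in which the stop comes after 124 codons instead of 164 and lies 548 bases before the last exon junction. In Srsf6-002 the piece belongs to a cassette exon of 268 bases (chr2:162758551-162758818), with the stop after 135 codons instead of 339 and 534 bases before the last junction. Although the annotation calls Srsf6-002 a processed transcript and gives it no reading frame, its structure is of the same kind as that of Srsf3-002. Srsf5-006 and Srsf5-005 use or retain sequence of the same intron, and their stops lie 1100 and 1405 bases before the last junction. Srsf5-008 runs on into the intron past an earlier exon and ends there, so that its stop lies in its last exon. The stop of Srsf11-003 lies only 17 bases before its last junction.

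Expression is given as FPKM, the fragments of a gene per kilobase and per M fragments, a scale on which genes can be compared. Srsf5 had the highest level, with 21.3 FPKM in the lowest mouse, 61.9 in the median mouse and 110.5 in the highest. It exceeded Srsf3, the next gene by median, in 52 of 55 mice. Srsf3, the smallest SR protein, ranged from 15.8 through a median of 24.0 to 42.7 FPKM. Srsf6 (14.5, 19.1 and 30.8 FPKM) and Srsf1 (11.7, 18.01 and 25.6) were not separated, since Srsf6 was higher in only 32 mice. Srsf11, an SR-like factor, followed at 10.5, 15.5 and 21.8 FPKM. Srsf4 (9.45, 13.3 and 24.0), Srsf7 (6.31, 12.9 and 24.8) and Srsf2 (7.72, 12.9 and 27.8) overlapped almost fully, with Srsf7 above Srsf2 in 26 mice. The lowest gene was Srsf10, a splicing repressor when dephosphorylated, at 3.22, 8.20 and 11.8 FPKM, and Srsf2 exceeded it in 53 mice.

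The fragments behind these levels numbered between 278 and 865 per mouse for Srsf7, the fewest by median except Srsf2 (331 to 1299), and between 1114 and 4445 for Srsf5. Shares of a few percent therefore rest on few fragments, and only fragments over a base that tells isoforms apart decide a share. The number of exonic bases found in a single isoform ranged widely, from 2610 for Srsf1-001 and 2129 for Srsf6-001 to 0 for isoforms such as Srsf3-002, Srsf3-005 and Srsf5-006, whose shares rest on combinations of shared bases and on junctions.

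All 9 SR genes differed among the lines in expression, by edgeR's quasi-likelihood test over 47 mice (the 21 lines that had 2 or 3) and with Benjamini-Hochberg adjustment over 15285 genes. This test called 88.5% of all genes, so the count of 9 is close to the background. It was run on expected counts, which are not corrected for isoform length, whereas the line means given here are in FPKM. Srsf5 had the widest range of line means. The 2 mice of IL-4457 averaged 21.5 ± 0.247 FPKM (SD, n = 2) and the 2 of IL-72 averaged 95.7 ± 21.02, a ratio of 4.45 (adjusted p = 2.59e-07). Srsf6 (adjusted p = 1.14e-05) and Srsf4 (adjusted p = 7.25e-05) came next, and their means in the tested lines ran from 15.8 to 26.3 FPKM and from 10.3 to 21.1 FPKM. Next was Srsf11 (adjusted p = 1.11e-04), whose means in the tested lines ran from 12.5 FPKM in IL-4052 to 21.8 in IL-4457. Srsf7, Srsf2 and Srsf3 had adjusted p between 1.14e-04 and 2.01e-04. In the tested lines, Srsf7 means ran from 8.83 FPKM in IL-2156 to 18.2 in IL-4457, those of Srsf2 from 8.83 in IL-3438 to 23.7 in IL-2680 and those of Srsf3 from 17.3 in IL-2146 to 33.0 in IL-2011. Single mice of lines left out of the test reached further, to 24.8 FPKM for Srsf7 (IL-2126) and 42.7 for Srsf3 (IL-557). By fragments, uncorrected for depth or length, some of the lines at the ends differed. Srsf3 then ran from IL-219 to IL-519 among the tested lines, and Srsf7 from IL-72 to IL-4457. Srsf1 (adjusted p = 0.00119) and Srsf10 (adjusted p = 0.00357) had their lowest mean in IL-2146, at 13.0 ± 1.80 and 5.07 ± 2.61 FPKM. Without IL-2146 the adjusted p of Srsf10 was 0.0778 and that of Srsf1 was 0.0391, so that the Srsf10 call rested on that line.

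The isoform share (IsoPct) is the percentage of a gene's transcripts that RSEM assigned to an isoform, corrected for length. The coding share is the sum of the shares of a gene's protein coding isoforms. Over all mice the mean coding share was 50.2% for Srsf3, 62.4% for Srsf5, 63.2% for Srsf6, 76.7% for Srsf11, 77.7% for Srsf1, 80.1% for Srsf4 and 93.5% for Srsf10. Among the 3356 genes with both kinds of isoform and enough spread, the median was 89.8%, with quartiles of 75.7% and 95.6%, so that Srsf3, Srsf5 and Srsf6 lay under the lower quartile. Srsf7 had only coding isoforms. For Srsf2 no coding share was computed, because 3 of its isoforms were not in the annotation and their class was not known. Its annotated coding isoforms were nearly absent, with Srsf2-201 at 0 in 50 mice and Srsf2-202 at 0 in all 55.

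**Figure D1:**
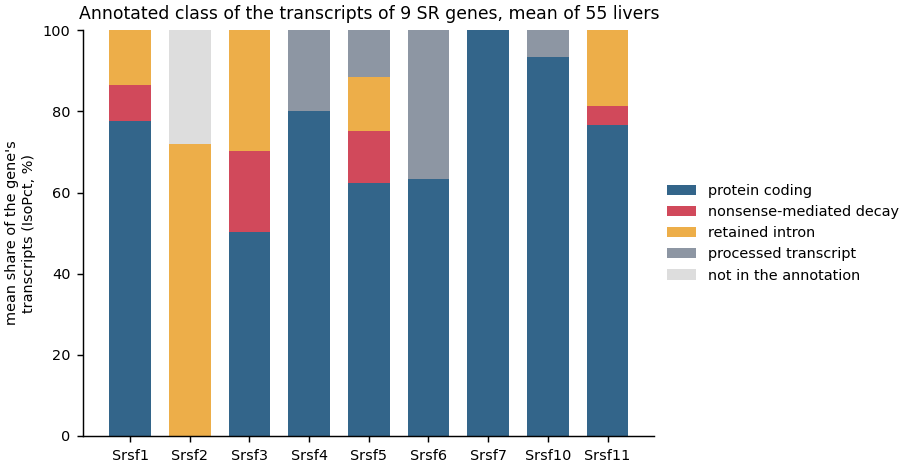
Mean share of each gene's transcripts (IsoPct, percent, vertical axis) by the annotated class of the isoform, for the 9 SR genes as stacked bars over 55 mice. Srsf3 had 50.2% of its transcripts in coding isoforms, Srsf10 93.5%, and Srsf2 71.9% in a retained intron isoform.

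The coding share differed among lines for 5 of the 7 SR genes that have one, by limma's moderated F test on normal scores of the rounded shares, adjusted over 3356 genes. The same test called 32.4% of all genes, and 54.3% of the 1662 genes with a maximum of at least 10 FPKM, among which the count for the SR genes was again 5 of 7. Srsf5 (adjusted p = 0.00454), Srsf1 (0.00604), Srsf3 (0.00755), Srsf4 (0.00921) and Srsf11 (0.0194) were called, whereas Srsf6 (0.108) and Srsf10 (0.391) were not. Without IL-2146 the same 5 were called, and also without IL-1052 and IL-2750. On the logit of the share Srsf4 (adjusted p = 0.0873) and Srsf11 (0.0818) were not called. With coding set against NMD isoforms alone, only Srsf5 of the 4 genes with both was called (adjusted p = 0.0660 for Srsf1 and 0.0621 for Srsf3, with Srsf11 not called either), and with NMD isoforms counted as coding Srsf1 was lost (adjusted p = 0.0621). For Srsf5, the adjusted p was at most 0.0216 over all alternatives. On the percentages without scores Srsf6 passed as well (adjusted p = 0.0293).

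**Figure D2:**
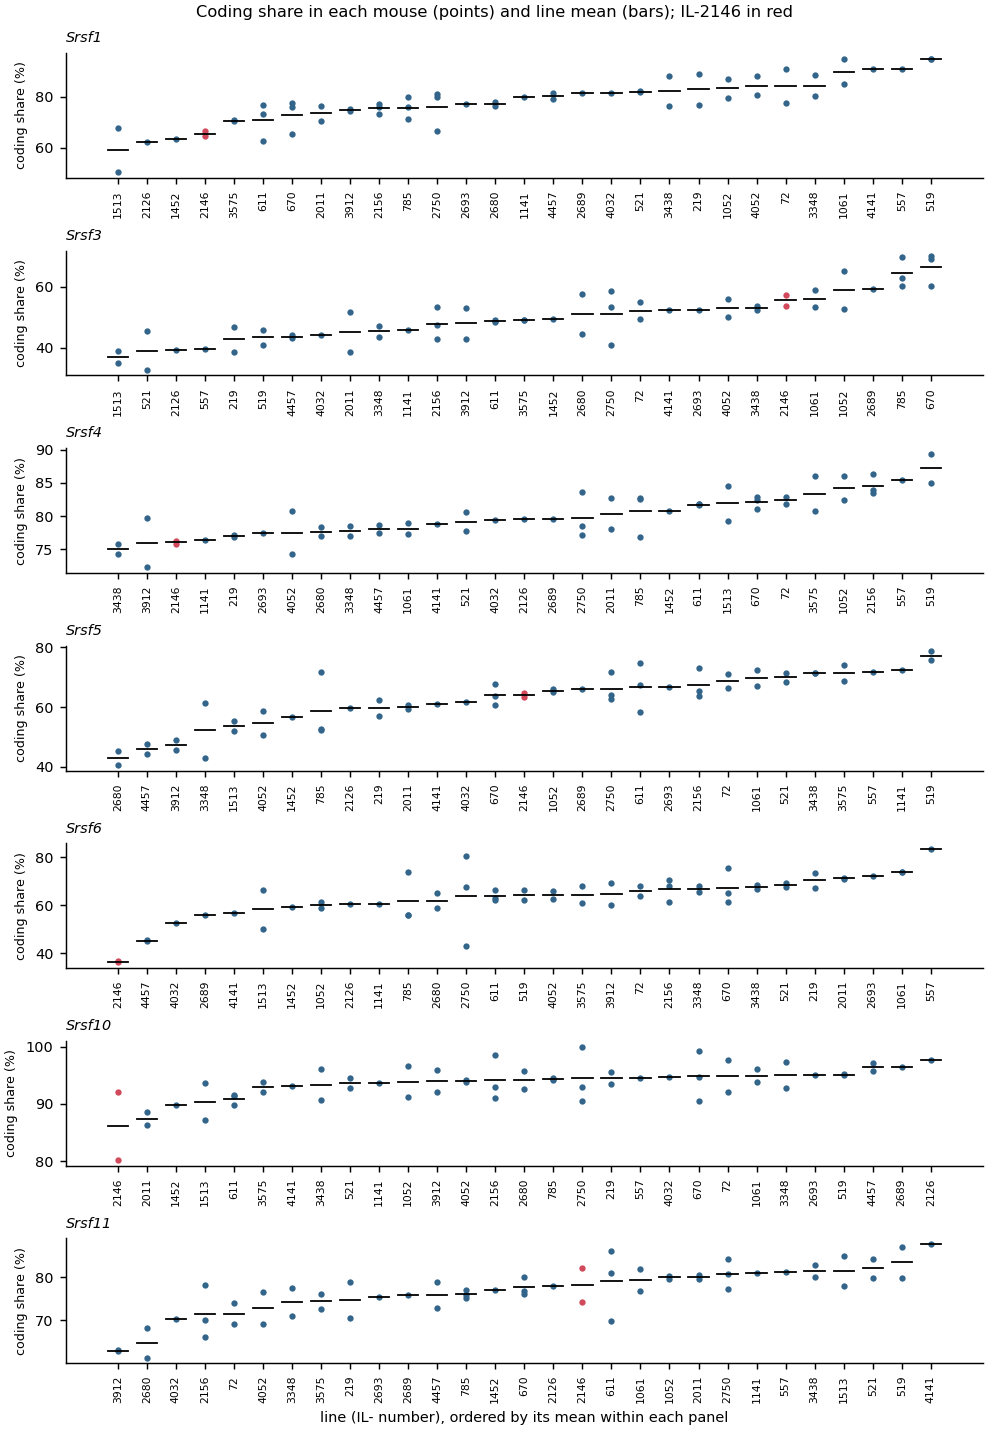
Coding share in percent (vertical axes, which do not start at 0) in each of 55 mice (points) with the line means (bars), for the 7 SR genes with coding and other isoforms. Lines are ordered by their mean within each panel and IL-2146 is in red. IL-519 is last for Srsf1, Srsf4 and Srsf5, and IL-2146 is first for Srsf6 and Srsf10.

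Srsf3, which regulates 3′ end processing as well as splicing, had the lowest coding share of the family that could be summed. It lay at 32.7% in the lowest mouse, 49.3% in the median mouse and 69.9% in the highest, and was under 50% in 30 of 55 mice. IL-1513 had the lowest mean (36.9% ± 2.81, SD, n = 2) and IL-670 the highest (66.3% ± 5.40, n = 3), and their mice did not overlap. A single coding isoform, Srsf3-001, made up the coding share. The rest was split between the cassette exon isoform Srsf3-002, whose stop is printed above, and the retained intron isoform Srsf3-005.

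Srsf3-002 held 9.51% of the transcripts in the lowest mouse, 20.3% in the median mouse and 38.7% in the highest. Both mice of IL-2146 (34.2% and 38.7%) were above every other mouse, of which the highest had 33.4%. The difference among lines was called (adjusted p = 0.0246), but not without IL-2146 (adjusted p = 0.0888). Srsf3-001 has 1103 bases found in no other isoform, and the share of the cassette exon itself was not measured apart from them. Srsf3-005 is a short transcript that shares 802 of its 910 bases with Srsf3-001 and begins with 108 bases of the preceding intron. Its share ran from 1.75% through 28.4% to 45.4%, from a mean of 5.94% ± 5.92 in IL-2146 to 39.3% ± 2.13 in IL-519 among lines with at least 2 mice. That difference was called with IL-2146 (adjusted p = 0.00264) and without it (0.00488). A longer retained intron isoform, Srsf3-003, stayed between 1.73% and 6.42%, and Srsf3-004 was at 0 in every mouse.

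Srsf6, an SR protein with a pair of RNA recognition motifs, was divided almost fully between the coding Srsf6-001 and the cassette exon isoform Srsf6-002. The latter held 16.7% in the lowest mouse, 34.9% in the median mouse and 63.8% in the highest. IL-2146 had 63.1% and 63.8%, above all other mice, and IL-4457 followed with 54.7% and 55.1%. The single mouse of IL-557 was the lowest. The shares of both isoforms missed the threshold (adjusted p = 0.119 for Srsf6-002), and without IL-2146 the adjusted p was 0.34. The SD within lines was 7.22 percentage points and that of the line means was 8.73, so mice of the same line differed nearly as much as lines did. Srsf6-001 also has 2129 bases found in no other isoform, and the share of the cassette exon itself was not measured apart from them.

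Srsf5 is read into 13 isoforms, of which 7 averaged at least 5% of the transcripts. Its coding share was 40.6% in the lowest mouse, 63.8% in the median mouse and 78.7% in the highest. IL-2680 had the lowest mean (42.9% ± 3.28, n = 2) and IL-519 the highest (77.2% ± 2.09, n = 2). The mice of these lines did not overlap, and 7 of 55 mice were under 50%.

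The other isoforms of Srsf5 did not move as a block. The NMD isoform Srsf5-006 ran from 3.43% through 12.5% to 24.4%, with both mice of IL-4457 at 23.3% and 24.4% and both of IL-1513 at 23.0% and 23.6% (adjusted p = 0.00718). The retained intron isoform Srsf5-005 ran from 2.38% through 11.5% to 25.9%, and was highest in IL-3912 (23.5% and 25.5%) and IL-2680 (19.2% and 25.9%; adjusted p = 0.003). In IL-3912 the NMD isoform was at 8.44% and 11.01%, under the median of all mice. IL-2680, IL-4457 and IL-3912 had the lowest coding shares of Srsf5 (means of 42.9%, 45.9% and 47.2%), and IL-4457 was highest in the NMD isoform, IL-3912 in the retained intron isoform, and IL-2680 was above the median in both, with 17.7% and 17.8% of Srsf5-006. Srsf5-008, which ends within an intron, lay between 4.27% and 18% (adjusted p = 0.00779). Of the coding isoforms, the leading Srsf5-202 ranged from 17.2% to 50.4% (adjusted p = 0.0171), Srsf5-001 from 0 to 21.3% (adjusted p = 0.0161) and Srsf5-004 from 2.03% to 11.7% (adjusted p = 0.0327), while Srsf5-003 ranged from 10.9% to 25.6% without passing (adjusted p = 0.208). Srsf5-003 shares all but 3 of its 1498 bases with Srsf5-202, so how fragments were divided between them is less certain than the coding share.

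Srsf1, the founding member of the family, had a coding share of 50.3% in the lowest mouse, 77.6% in the median mouse and 94.8% in the highest. IL-519 had 94.7% and 94.8% and IL-1513 had 50.3% and 67.6%, so the mice of the lines at the ends did not overlap. The coding share was made of Srsf1-003 (48.2% on average), whose frame stops after 201 codons, and Srsf1-001 (27.5%), whose frame stops after 248 codons and which has 2265 more bases at its 3′ end. Both were called (adjusted p = 0.0143 and 0.0194), and both had their lowest mean in IL-2146, at 31.5% ± 8.08 and 14.5% ± 2.00. Without that line the adjusted p was 0.0354 for Srsf1-003 and 0.0775 for Srsf1-001. The coding isoform Srsf1-006, at 0 in 28 mice and at most 9.36% in mice of other lines, had 11.5% and 27.5% in IL-2146.

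The other Srsf1 isoforms were Srsf1-004, a retained intron transcript of 759 bases, and the NMD isoform Srsf1-002, of 896 bases. Srsf1-004 ran from 0 through 13.0% to 29.9% (adjusted p = 0.0635) and Srsf1-002 from 2.03% through 6.21% to 40.9% (adjusted p = 0.108). Without IL-2146 Srsf1-004 was called (adjusted p = 0.027) and Srsf1-002 was not (adjusted p = 0.0657). The 2 mice of IL-1513 had 10.3% and 40.9% of Srsf1-002, and those of IL-2146 had 4.66% and 33.8%. The mice of each of these lines thus lay far apart. Neither isoform has an exonic base of its own. With IL-2146 included neither was called singly, although the coding share, whose complement is almost wholly their sum, was.

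Srsf4 and Srsf11 had narrower ranges. The coding share of Srsf4 lay between 72.3% and 89.4%, with a median of 79.6%. The lowest mean was in IL-3438 (75.1% ± 0.990, n = 2) and the highest in IL-519 (87.2% ± 3.10, n = 2). The other transcripts of Srsf4 were Srsf4-004 (13.4% on average) and Srsf4-003 (6.45%), processed transcripts with exons absent from the leading coding isoform between chr4:131440191 and chr4:131442219. None of the Srsf4 isoforms was called singly, with adjusted p between 0.058 and 0.198, although the coding sum was. The coding isoform Srsf4-001 ran from 19.5% and 19.8% in IL-4457 to a mean of 54.1% ± 2.69 in IL-3575, and Srsf4-201 was highest in IL-4457, at 55.7% and 58.6%.

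The coding share of Srsf11 lay between 61.3% and 87.7%, with a median of 77.2%. Both mice of IL-3912 were low (mean 62.9% ± 0.198), followed by IL-2680 (64.8% ± 4.90), and the highest was the single mouse of IL-4141. The retained intron isoform Srsf11-004, in which 1963 of 2415 bases belong to no other isoform, ran from 3.59% through 9.86% to 16.4% (adjusted p = 0.00254). IL-3912 had 13.5% and 16.3% and IL-2680 had 14.7% and 14.9%. Srsf11-003 was also highest in IL-3912, at 11.9% and 13.1%, and IL-2680 had 12.1% and 12.5% (adjusted p = 0.0277). Of the retained intron isoforms of other SR genes, Srsf5-005 and Srsf3-003 also had their highest line mean in IL-3912 (24.5% and 5.945%). The means of Srsf1-004 (18.7%) and Srsf2-003 (81.7%) in that line were above the medians of all mice (13.0% and 73.5%). Srsf3-005 was not high there, at 17.2% and 28.6% beside a median of 28.4%. The leading coding isoform Srsf11-002, at 43.0% on average, was not called (adjusted p = 0.455), and the smaller coding isoforms Srsf11-005, Srsf11-010 and Srsf11-001 were (adjusted p = 0.0135, 0.0255 and 0.0261).

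Srsf7, which binds RNA through a zinc knuckle as well, had no annotated isoform other than coding ones. All 3 differed among lines. Srsf7-202, of 2263 bases, ran from 10.5% through 46.7% to 80.0%, ENSMUST00000112421, of 1002 bases, from 16.0% through 36.6% to 62.4%, and Srsf7-201 from 0 through 16.6% to 52.4%. ENSMUST00000112421 lacks an exon of 36 bases that Srsf7-202 has, and its frame holds 226 codons instead of 238. The exon is printed in capitals to show what separates their coding sequences.
Srsf7-202, chr17:80601509-80601544, minus strand: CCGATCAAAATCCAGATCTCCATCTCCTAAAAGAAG
The means of Srsf7-202 went from 10.8% ± 0.431 in IL-2146 to 76.0% ± 5.61 in IL-2011 (adjusted p = 0.00329), and both mice of IL-2146 (10.5% and 11.1%) were below all others, of which the lowest had 18.3%. Without IL-2146 the adjusted p was 0.00858. Srsf7-201, with 112 bases of its own, was at 0 in both mice of IL-2011 and at 31.9% and 52.4% in IL-1513 (adjusted p = 0.0126). ENSMUST00000112421 was called (adjusted p = 0.0428) but not without IL-2146 (0.106) nor without IL-1052 and IL-2750 (0.0933). Srsf7-202 also has 1225 bases found in no other isoform, and the share of the exon itself was not measured apart from them.

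**Figure D3:**
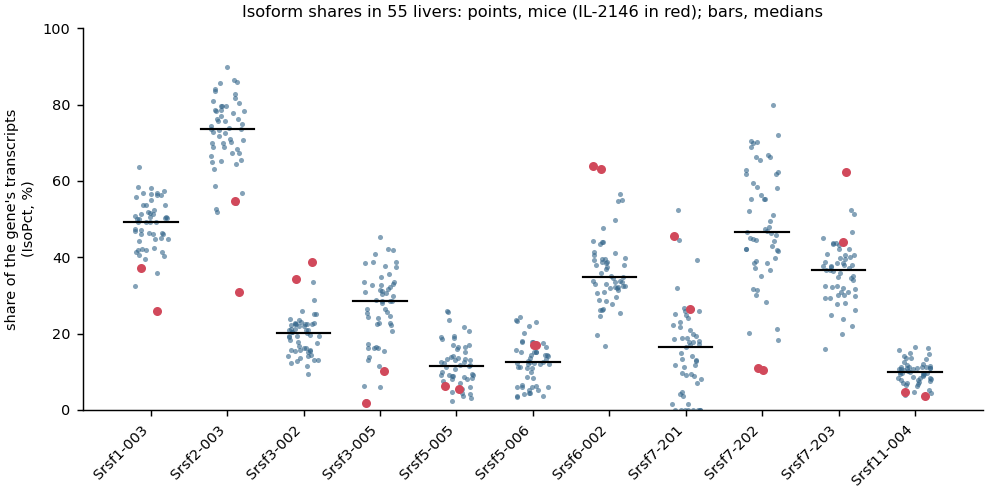
Share of the gene's transcripts (IsoPct, percent, vertical axis) held by 11 isoforms in each of 55 mice, with IL-2146 in red and the median as a bar. IL-2146 is above all other mice in Srsf6-002 and Srsf3-002, below all others in Srsf7-202, and within the range of the others in Srsf5-006. The last of the 3 Srsf7 isoforms is ENSMUST00000112421.

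Srsf10 was coding in 80.2% to 100% of its transcripts, with a median of 93.8%. Neither the coding share nor any of its 5 tested isoforms was called. The leading isoform Srsf10-002 averaged 38.5% and came closest (adjusted p = 0.0775). Its 6 processed transcripts averaged between 0.572% and 1.75% each. For Srsf2, a factor bound to exonic enhancers and kept in the nucleus, 71.9% of the transcripts were on average in Srsf2-003, annotated as a retained intron. The unmatched ENSMUST00000176064 held most of the rest. Srsf2-003 ran from 30.8% through 73.5% to 89.7%, from a mean of 42.7% ± 16.9 in IL-2146 to 83.8% ± 2.79 in IL-2011 (adjusted p = 0.00979, and 0.0201 without IL-2146). The other isoform mirrored it, from 10.3% to 69.2% (adjusted p = 0.00518). Mfsd11, on the opposite strand, shares 293 exonic bases with annotated Srsf2 and was itself at 2.66 to 7.13 FPKM. The library kit keeps the strand, but the authors' default settings did not use it, so reads of these bases could not be assigned by strand. Gm12992 and Gm11508, on the opposite strand of Srsf4 and Srsf1, were at most at 0.15 FPKM.

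Altogether 40 of the 68 isoforms had enough levels to be tested, and 21 of the 40 were called. The background was 28.1% of 21415 isoforms. With genes limited to a maximum of at least 10 FPKM, which all 9 SR genes reach, 25 of the 40 were called beside a background of 48.9%. Since the 40 were those with enough spread to pass the filter, the count describes them and not the 68. 36 isoforms averaged at least 5% of their gene. The other 32 averaged at most 3.73% and reached 33.5% in 1 mouse at the most, and 3 of them were at 0 in all mice. Of these 32, 28 were not tested and the tested ones were not called.

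The share of variance that lies between lines was measured by the intraclass correlation of the normal scores over all 55 mice, with one-sided p-values from 100000 permutations of the line labels. For expression it ran from 0.41 for Srsf1 (p = 0.0154) to 0.82 for Srsf3 (p = 1e-05, the smallest that these permutations can give). The median of the 9 genes was 0.63, beside 0.59 over 5949 genes. Without IL-2146 the value for Srsf1 was 0.30 (permutation p = 0.0627). For the coding share it was, by the same permutation test, 0.63 for Srsf1 (p = 0.00017), 0.60 for Srsf5 (p = 0.00042), 0.54 for Srsf3 (p = 0.00146), 0.50 for Srsf4 (p = 0.00365) and 0.43 for Srsf11 (p = 0.0106). Srsf6 had 0.30 (permutation p = 0.0618) and Srsf10 had -0.09 (p = 0.674). The Srsf6 value was 0.15 without IL-2146 (permutation p = 0.239) and 0.20 over the 47 mice with a line mate (permutation p = 0.1445), but 0.43 on the values without scores (permutation p = 0.0195) and 0.45 without IL-1052 and IL-2750 (permutation p = 0.012). The median of the 7 was 0.50, beside 0.24 over 3356 genes with quartiles of 0.063 and 0.41. Of single isoforms, Srsf3-005 had the highest value (0.73), followed by Srsf11-004 (0.69) and Srsf5-005 (0.67).

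**Figure D4:**
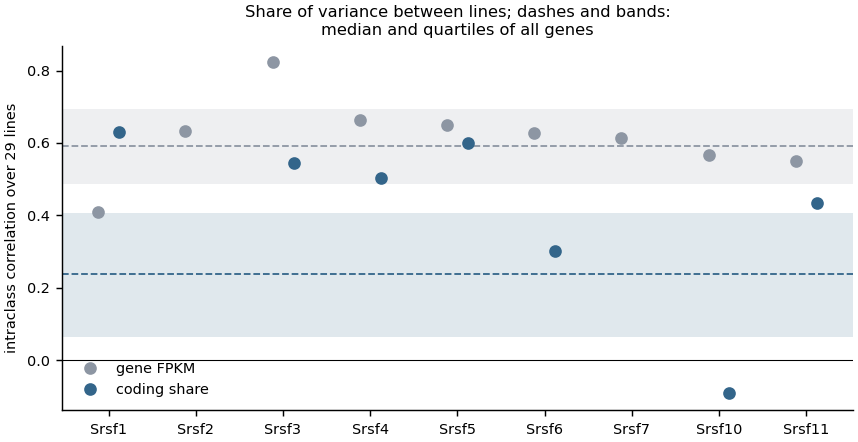
Intraclass correlation over 29 lines (vertical axis) of gene FPKM (grey) and of the coding share (blue) for each SR gene. Dashed lines and bands give the median and the quartiles of all genes (0.59 for FPKM and 0.24 for the coding share), not matched to the SR genes in expression. 5 of the 7 coding shares lie above the band of all genes, Srsf6 lies within it and Srsf10 below 0.

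Whether lines with more of a gene's RNA also have more of it in coding form was asked over the 29 line means, with log2(FPKM + 1) as expression, two-sided permutation tests and 7 relations in all. Both measures come from the same RSEM estimates. For Srsf5 the coding share was higher in lines with more expression (Pearson r = 0.55, permutation p = 0.00223; Spearman rho = 0.65, permutation p = 0.00015, adjusted p = 0.00735 over 3356 genes). Without the 2 lines farthest from the median expression, IL-4141 and IL-4457, r was 0.52. The coding FPKM of Srsf5 varied more among lines (coefficient of variation 35.7%) than the FPKM of its other isoforms (26.7%).

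For Srsf3 the relation had the opposite sign (r = -0.56, permutation p = 0.00154; rho = -0.47, permutation p = 0.0104, adjusted p = 0.0871). Its coding FPKM varied by 21.4% among lines, less than the 34.3% of its other isoforms, and went from 8.15 to 19.6 while the others went from 6.10 to 25.8. Leaving out IL-4141 and IL-557 gave r = -0.58. Srsf4 gave r = -0.41 (permutation p = 0.028) and rho = -0.39 (permutation p = 0.0401, adjusted p = 0.19). Without IL-3348 and IL-4052 its r was little changed, at -0.36, but over fewer lines it missed the threshold (permutation p = 0.0639). For Srsf1, r was -0.16 (permutation p = 0.409) and rho was -0.35 (permutation p = 0.0677), and without IL-2146 and IL-557 r was -0.60 (permutation p = 0.00074). The value for Srsf1 therefore depended on these 2 lines. Srsf6 (rho = 0.28), Srsf10 (rho = 0.0034) and Srsf11 (rho = 0.0089) gave permutation p between 0.138 and 0.987. Over all 3356 genes the median rho was -0.08, 61.2% were negative and 281 passed after adjustment.

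**Figure D5:**
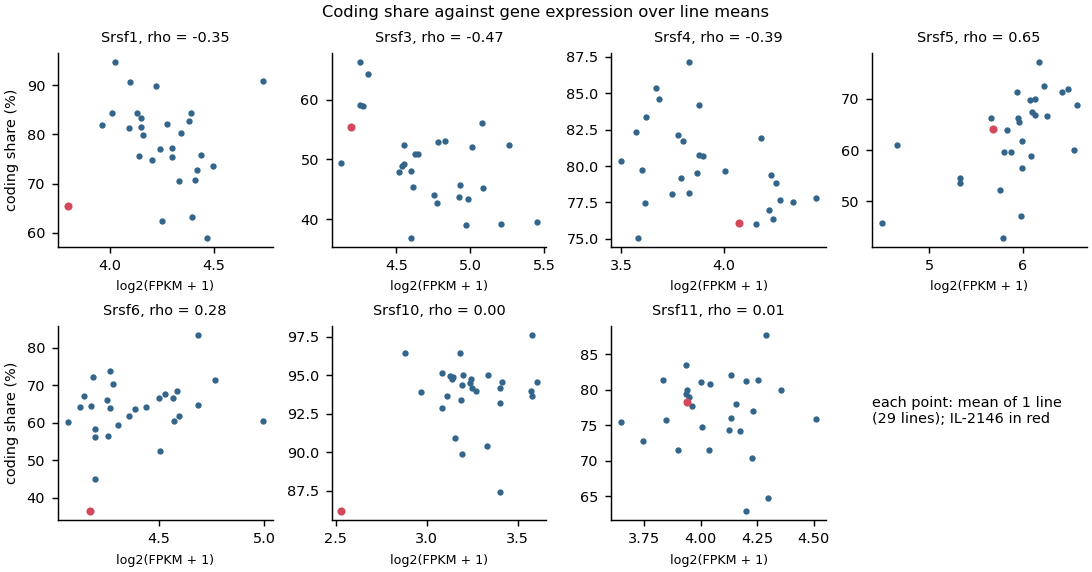
Coding share in percent (vertical axes, which do not start at 0) against log2(FPKM + 1) (horizontal axes) over 29 line means, 1 panel per SR gene, with Spearman's rho in each title and IL-2146 in red. Srsf5 rises to the right (rho = 0.65) and Srsf3 falls (rho = -0.47).

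The scale of expression entered these relations. With counts per M, which do not correct for isoform length, rho stayed at 0.56 for Srsf5 and -0.39 for Srsf3, but was 0.28 for Srsf1, of the opposite sign, and 0.51 for Srsf6. Within lines, over the deviations of 47 mice from their line means, rho was 0.44 for Srsf5, 0.13 for Srsf3 and -0.23 for Srsf1. The sign for Srsf5 was thus the same among mice of a line as among lines, and that for Srsf3 was not.

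Among themselves the coding shares of the 7 genes were weakly related over the 29 lines, although all genes of a mouse were measured in the same library. Of the 21 pairs, 15 had a positive Spearman rho, with a median of 0.04 and a range from -0.27 to 0.43. The genes' expression had a median rho of 0.17. IL-519 and IL-557 (1 mouse) each had 4 of the 7 genes among their highest 3 lines, and IL-2146 and IL-3912 each had 3 of the 7 among their lowest 3. With the transcriptome-wide mean coding share of the lines, each gene weighing the same, which was between 78.5% and 83.6% per mouse, rho was 0.50 for Srsf5, 0.35 for Srsf3, 0.32 for Srsf1, 0.28 for Srsf6, and between -0.04 and 0.09 for Srsf4, Srsf10 and Srsf11. The median over all genes was 0.12. When genes were weighted by TPM, rho was 0.22 for Srsf5, 0.24 for Srsf3, 0.039 for Srsf1 and 0.32 for Srsf6, so the order of the genes depended on the weighting. With the unweighted share as a covariate the same number of SR genes, 5, was called.

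The genes whose coding share was most like the mean score of the 7 SR genes over the 29 line means were Map3k5 (rho = 0.70), Zfand5 (0.69), Tmem140 (0.68), Ezh2 (0.67) and Tnfaip2 (0.66), given as a description.

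Other genes of splicing were examined by list. Of 9 other factors with an RS domain tested, 7 differed in expression. Tra2b had the lowest adjusted p of these (11.7 to 39.3 FPKM, adjusted p = 2.85e-08) and Snrnp70 the highest (13.7 to 31.4 FPKM, adjusted p = 0.116). Of the coding shares, 1 of 4 was called, that of Son (59.8% to 81.7%, adjusted p = 0.0141). Of the SR protein kinases and the importer Tnpo3, 6 of 7 differed in expression and 3 of 5 in coding share. Clk4 (52.3% to 86.4%, adjusted p = 0.00395) and Clk1 (33.4% to 94.4%, adjusted p = 0.023), kinases that phosphorylate SR proteins in the nucleus, were among these (Clk1 was picked after its values were seen), and Clk2 (16.4% to 78.3%) was not (adjusted p = 0.622). The hnRNPs, which often act against SR proteins, differed in expression in 16 of 16 cases and in coding share in 7 of 8. Ptbp1 had the lowest adjusted p (59.8% to 97.7% coding, adjusted p = 0.00562) and Hnrnpr was the exception (26.9% to 87.2%, adjusted p = 0.234). Of the NMD factors, 6 of 8 differed in expression and both tested coding shares were called, Upf3b (91.9% to 99.8%, adjusted p = 0.00744) and Smg6 (39.3% to 92.8%, adjusted p = 0.0151). These counts stand beside 88.5% for expression and 32.4% for the coding share among all genes, and beside 54.3% for the coding share among genes with a maximum of at least 10 FPKM, a level that every hnRNP with a tested coding share reached except Hnrnph3 (at most 9.18 FPKM).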

How the data were processed

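Liver polyA RNA of 55 mice was sequenced as paired reads of 50 bases, with no batch given in the labels. The authors mapped and quantified with RSEM 1.2.18 and Bowtie 2, with default parameters, on mm9 (NCBI37) with an Ensembl annotation. The deposited expected counts are RSEM's estimated fragments per gene or isoform, not normalized. RSEM gave the deposited FPKM and TPM, which account for the effective length of a transcript and for depth. The deposited IsoPct is in percent, and differed from 100 times the isoform TPM over the gene TPM by at most 0.086 points in the SR genes.

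Isoform classes came from an older annotation of the same build, which held 95337 of 97251 isoforms, and 409 genes with an unmatched isoform were left out of the coding shares. No amino acid sequences were used here. For shares and intraclass correlations, genes needed a maximum FPKM of at least 2 and traits at least 12 rounded levels (bins of the maximum over 200, floor 0.5). Van der Waerden scores were then taken, as in the study. The expression test used edgeR's own filter on counts instead. Lines were compared over 47 mice of 21 lines, with edgeR 4.0.16 (quasi-likelihood F test on rounded expected counts, TMM) for expression and limma 3.58.1 (moderated F test) for shares, with Benjamini-Hochberg adjustment at 0.05. On simulated data with known answers for the limma test, 21 of 500 calls among 3000 features were false. The test called 80 of 500 features with a set intraclass correlation of 0.3, and 399 of 500 with 0.6. A missing call, as for the coding share of Srsf6, therefore does not show that lines are alike. DESeq2 1.42.0 was an alternative. Intraclass correlations and permutations used Python 3.11.15. Precision depends on the fragments of each gene. Expression values were not corrected for cell composition.

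The SR genes and the gene lists were chosen with earlier results of these data known. Isoforms were described singly where their mean share was at least 5% or the test called them. For each gene with a called coding share the lines with the lowest and highest means were named, as were the 5 genes most like the mean coding score and the members of the lists with the lowest or highest adjusted p. Mice of a line are separate animals of 1 inbred line, so differences among lines can also hold litter, age or time of collection. Alternatives were other filters, scales, covariates, tools, samples and classes. Chosen after seeing the data were the tests without IL-2146 and without moderation of the variance, the relations with counts per M, and the leaving out of mice in turn for the intraclass correlations.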

Additional observations from a re-analysis of the deposited data

How the results depend on the processing

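Across the alternatives, the number of genes called for expression, isoforms called for their share and genes called for their coding share stayed within 1.5 times the reported counts, except on the logit scale (3862 isoforms and 717 coding shares, of which 3 of 7 SR genes) and with coding set against NMD isoforms alone (182 of 890 genes, and 1 of the 4 SR genes that could be tested so). These alternatives change the transformation or the classes compared, and the cause was not tested. Leaving out each mouse in turn gave 13318 to 13832 genes for expression (9 of 9 SR genes each time), 5210 to 6452 isoforms (20 to 25 SR isoforms) and 982 to 1154 coding shares (5 to 6 SR genes). DESeq2 called 13551 of 15260 genes. Without moderation of the variance 4249 isoforms and 743 coding shares were called, with 5 SR genes still among the latter, and without IL-2146 the counts were 12744, 5165 and 966. The single results for SR genes and for their 21 called isoforms were compared with each alternative in turn. Of these comparisons, 546 kept direction and side of the threshold, 41 lost the threshold and 8 passed it. Where no p-value was computed, only the sign was compared. Isoforms not called in the main test were not counted here, and some of them passed in alternatives, such as Srsf4-004 in 3 of 12.

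Some rank relations and correlations changed sign. The intraclass correlation of the coding share of Srsf10 was 0.0070 on the values without scores, 0.023 without IL-1052 and IL-2750, and between -0.19 and 0.0039 with a mouse left out. For the relation with expression, Srsf1 gave 0.28 with counts per M. With deviations from the line mean, Srsf3 gave 0.13, Srsf4 0.060, Srsf6 -0.31 and Srsf11 -0.17. Srsf10 gave -0.026 without IL-1052 and IL-2750, -0.049 over the 21 lines with at least 2 mice and -0.11 without IL-2146, and Srsf11 gave -0.081 over 55 mice, -0.0069 with TPM and -0.12 over the 21 lines. There was no pairing to analyse, since all mice were untreated and each gave a single sample.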
